A study of Rattus norvegicus with 12 samples.

Results

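Small nucleolar RNAs (snoRNAs), small nuclear RNAs (snRNAs) and small Cajal body RNAs (scaRNAs) were read in the free walls of both ventricles of newborn rats, the left (LV) and the right (RV). The members are the genes that the deposited table lists with the biotype snoRNA, snRNA or scaRNA and whose mean FPKM (fragments scaled to gene length and library size) was at least 0.5 over the 12 libraries. This gave 312 genes out of 3180 listed with these biotypes and out of 32545 genes in all, namely 216 of 1654 snoRNA genes, 82 of 1475 snRNA genes and 14 of 51 scaRNA genes. Of the 3180 genes, 2298 had no read in any library. The mean FPKM chose the members, so their levels are given as a description. The genes just below the minimum were SCARNA23 at 0.493 FPKM and a U7 gene at 0.497 FPKM, and those just above it were ACA64 at 0.5001 FPKM and a U6 gene (ENSRNOG00000061606) at 0.502 FPKM. In 42 members the mean over the other 3 groups was under 0.5 FPKM, so these genes entered through the group in which they were highest.

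The rats were Sprague-Dawley (SD in the labels). At postnatal day 1 they underwent either fistula surgery between the abdominal aorta and the inferior vena cava, which loads both ventricles with volume (VO), or a sham operation, and the myocardium of the free walls was taken at postnatal day 7. Each ventricle gave 3 libraries after the sham operation and 3 after VO, and every group, sham included, had been operated on. The labels do not say whether an LV and an RV library came from the same rat or whether rats were pooled, and the p values measure the spread between these libraries, which may be technical.

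Box C/D snoRNAs (SNORD genes) guide 2′-O-methylation of ribosomal RNA, and box H/ACA snoRNAs (SNORA genes) guide its pseudouridylation. scaRNAs guide the same modifications on the spliceosomal snRNAs in the Cajal body, and the U snRNAs form the cores of the spliceosome. Most mammalian snoRNAs have no promoter of their own and are trimmed out of introns of host genes, many of which code for ribosomal proteins and translation factors, while the spliceosomal snRNAs are transcribed as short genes. Ribosome production, which these guides serve, is part of the growth of the postnatal myocardium. Mature snoRNAs and snRNAs lack a poly(A) tail, and the libraries had been made from RNA bound to poly-T beads and primed with random hexamers. The study also favored library fragments longer than most of these genes. Whether reads on a member came from its mature RNA or from a longer transcript was not tested. The levels below are therefore those of reads on the listed gene and not amounts of mature RNA.

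The libraries held between 14121713 and 16871371 reads on genes, recovered from the FPKM as whole numbers. Ventricular cardiomyocyte genes (Myh6, Myh7, Tnnt2, Actc1, Ryr2 and Myl2) were abundant in all 12 libraries, with a summed level of 12042 to 19299 FPKM. The atrial genes Sln and Bmp10 were high in VO RV replicate 2 (388 and 72.4 FPKM) and sham RV replicate 1 (97.7 and 12.6 FPKM), and stood at or below 0.678 and 0.152 FPKM in the other 10 libraries. The summed FPKM of Y chromosome genes was 57.1 to 65.5 in sham LV replicates 1 and 2, sham RV replicates 1 and 2 and VO RV replicate 3, and 0 to 0.0343 in the other 7 libraries. Thus both sham groups held 2 libraries with Y transcripts, VO RV held 1 and VO LV held 0. In bulk myocardium, fewer cells of a type and less RNA per cell cannot be told apart.

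The 312 members together held 25558 reads. A member held between 7 and 1300 reads over the 12 libraries, with a median of 35, and a median of 3 reads in a single library. Only 50 members had at least 120 reads in all, and 208 had under 60. Of the 3744 values of a member in a library, 677 (18.1%) were 0, and 117 members were read in all 12 libraries. The genes were 60 to 416 bases long. At the median length a single read was worth 0.521 to 0.675 FPKM, depending on the library, so the step of a single read was larger than the minimum that chose the members. The 10 members with the most reads held 29.0% of all member reads. The reads are counting units of the library and not independent molecules, and intervals on them cover counting error only.

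Box C/D snoRNA genes held the largest part of these reads. The 94 SNORD genes held 11136 reads (43.6%), the SNORA genes 8138 (31.8%), the 77 genes of the spliceosomal U snRNAs 4454 (17.4%), the 14 scaRNA genes 783 (3.06%) and the remaining 25 genes, mostly with older snoRNA names, 1047 (4.097%). The members carried 152 distinct names, and 216 of them shared a name with another member, so how reads of near-identical copies were divided between them is uncertain. The U6 snRNA, which sits in the catalytic core of the spliceosome, gave 57 members out of 919 listed genes and 1886 reads. U1, which recognises the 5′ splice site, gave 11 members and 620 reads. U2, which pairs with the branch site, gave 6 members and 1740 reads, of which 1300 lay on a single gene of 85 bases. U4 gave 3 members and 208 reads. Whether a listed gene is a full copy of its snRNA was not examined. No listed gene of U5, U11, U12, U6atac, U4atac, the snoRNA U3 or U8 reached the minimum.

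Most of the members with the highest levels were SNORD genes. Per length and over all 12 libraries, SNORD29 had the highest mean level (85.2 FPKM), followed by the U2 gene of 85 bases (ENSRNOG00000054047, 80.4 FPKM), SNORD44 (52.4 FPKM), SNORD22 (51.3 FPKM), SNORD78 (48.4 FPKM), SNORD47 (46.9 FPKM), SNORD45 in the gene Rabggtb (ENSRNOG00000053795, 40.8 FPKM) and SNORD24 (26.6 FPKM). SNORD29 held 114, 166 and 46 reads in sham LV replicates 1 to 3 and 96, 67 and 44 in VO LV. In the RV it held 89, 98 and 49 after the sham operation and 79, 53 and 133 after VO. Its libraries thus overlapped in all 4 groups, and no comparison called it. U2 stood above SNORD29 in sham RV (107.5 and 81.2 FPKM) and in VO LV (101.6 and 65.4 FPKM). In this order, SNORD29 and U2, and each pair of neighbours from SNORD44 to SNORD45, differed by less than the largest SD between the libraries of a group. The highest SNORA gene was SNORA62, in the gene of the ribosomal protein Rpsa, at 18.0 FPKM, followed by a SNORA44 gene (ENSRNOG00000059045) at 15.6 FPKM. The highest scaRNA was SCARNA21 in Fbxo3 at 5.52 FPKM, and the longest member, SCARNA2, had 36.4% of its reads in sham LV replicate 2. Among the remaining genes LOC252890, inside Cox7c, was highest at 22.6 FPKM.

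Summed over all members, the RPM (reads scaled to 1e6 reads on genes) were highest in sham LV and lowest in VO LV. They were 148, 207 and 136 in sham LV replicates 1 to 3 and 126, 129 and 101 in VO LV. In the RV they were 124, 129 and 133 after the sham operation and 134, 140 and 159 after VO. All 3 sham LV libraries lay above the 3 sham RV and the 3 VO LV libraries. All 3 VO RV libraries lay above sham RV, though the nearest stood at 134 and 133, and they overlapped when scaled to reads on coding genes. The means were 164 ± 38.1 in sham LV and 119 ± 15.7 in VO LV, and in the RV 129 ± 4.66 after the sham operation and 144 ± 12.9 after VO (SD, n = 3). Without sham LV replicate 2, the sham LV mean was 142. A sum over members chosen by their level was given no test.

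The range of the classes over the libraries depended on sham LV replicate 2. The SNORD genes ranged 2.56-fold between the lowest library (VO LV replicate 3, 37.6 RPM) and the highest (sham LV replicate 2, 96.3 RPM), the SNORA genes 1.81-fold and the scaRNAs 3.41-fold. Without sham LV replicate 2 these ranges were 1.93-fold, 1.51-fold and 1.87-fold. The U snRNAs as a whole ranged only 1.37-fold, with means of 24.9 ± 3.94 RPM in sham LV and 23.5 ± 1.99 in VO LV, and in the RV 24.7 ± 1.38 after the sham operation and 23.5 ± 0.162 after VO (SD, n = 3). This narrow range was the sum of unlike parts. The U2 gene of 85 bases was lowest in sham LV, while the other 76 U snRNA genes summed to 20.7 ± 4.22 RPM in sham LV and 14.7 ± 2.77 in VO LV, and in the RV to 15.3 ± 1.91 after the sham operation and 17.8 ± 2.07 after VO. The U1 genes summed to 4.91, 5.88 and 3.32 RPM in sham LV and to 2.69, 2.05 and 2.68 in sham RV, without overlap. The U6 genes summed to 9.82 to 13.7 in sham LV and 8.08 to 10.8 in sham RV, and these overlapped.

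**Figure D1:**
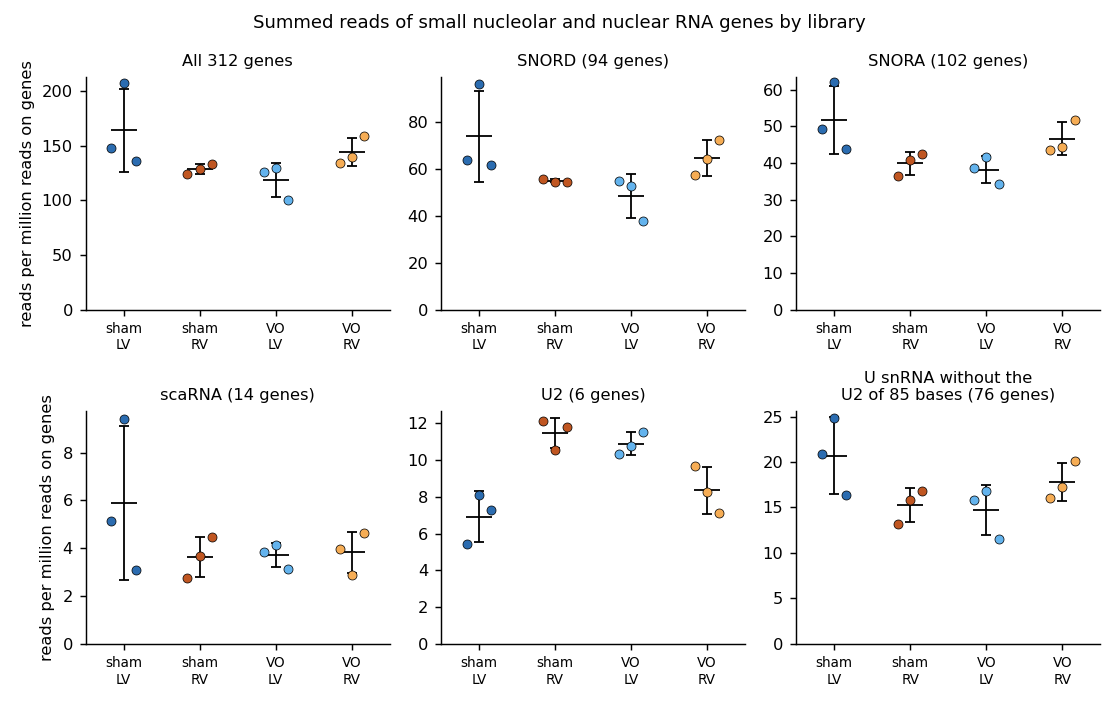
RPM of the small RNA genes (vertical axis, linear, from 0) in each of the 12 libraries, for all 312 genes and for 5 sets of them. Points are libraries, horizontal bars the group means and vertical bars the SD (n = 3), and U2 is lowest in sham LV while the means of the other sets are highest there.

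Single libraries stood out. Sham LV replicate 2 had the highest level of the 12 libraries in 68 of the 312 members, and in 20 of the 50 members with at least 120 reads. VO LV replicate 3 had the lowest level in 22 of these 50. The median log2 deviation of the members from their mean over libraries was 0.41 in sham LV replicate 2, 0.31 in VO RV replicate 3, 0.29 in sham LV replicate 1, 0.20 in sham LV replicate 3, −0.18 in sham RV replicate 1 and −0.30 in VO LV replicate 3, and it lay between −0.07 and 0.02 in the other 6. Over all 13910 tested genes it stayed between −0.01 and 0.01. Other short genes, those of at most 200 bases that were no members, summed to 1278 to 1642 RPM in sham LV and 1120 to 1313 in sham RV, and sham LV replicate 2 was the highest there too. The share of reads on mitochondrial genes was 14.4% in sham LV replicate 2, the lowest of the 12, and up to 26.2% in the others. Red blood cell genes (Hbb, Hba1 and Alas2) summed to 9614 to 13173 FPKM in sham LV and 4894 to 8156 FPKM in sham RV, without overlap, and to 6456 to 9876 FPKM in VO LV and 4774 to 10752 FPKM in VO RV. The endothelial genes Cdh5 and Kdr summed to 156 to 195 FPKM in sham LV and 130 to 147 FPKM in sham RV, also without overlap. The fibroblast genes Col1a1, Col3a1 and Pdgfra had their highest sums in VO RV replicate 2 (3350 FPKM) and sham RV replicate 1 (2559 FPKM), the libraries with high Sln and Bmp10. Their sums were 1818 to 1960 FPKM in sham LV and 1460 to 1704 FPKM in VO LV, without overlap. The ventricular cardiomyocyte genes summed to 13986 to 15871 FPKM in sham LV and 16766 to 19299 FPKM in VO LV, also without overlap. Among these, Tnnt2 went the other way (5024 to 5669 and 4307 to 4742 FPKM). Mitochondrial rRNA stood at 6805 to 9186 RPM in sham LV and at no more than 6022 RPM in the other 9 libraries. The part of these measures in the results was not tested.

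Within the groups, the reads of a member varied more than counting alone gives. The chi-square of the reads over its degrees of freedom, which is near 1 for counting error alone, had a median of 1.69 over the 312 members and of 2.01 over the 50 with at least 120 reads. SNORD29 had the highest value (17.5). When each library was scaled by its member reads in place of all reads on genes, the value of SNORD22 went from 3.72 to 0.474 and that of SNORD47 from 1.36 to 0.395, though the reads of each gene are part of the total. The medians changed less, to 1.60 over all members and 1.78 over the 50. The value of the short U2 gene went from 4.28 to 8.53.

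The comparisons were fitted on log2(FPKM + 0.5) after rescaling by a median-ratio size factor, with limma in a single model of the 4 groups over the 13910 genes whose mean reached 0.5 FPKM. A gene was called when its Benjamini-Hochberg adjusted p was under 0.05 and its fold change over 1.3. All members pass the filter on low values, since it is the same minimum that chose them. A log2 difference of a gene with few reads is held towards 0 by the added 0.5. Over the 5 comparisons, 18 members were called at least once, which is 5.77% of them, beside 5.9% of all tested genes. Of the 18, 7 had at least 120 reads in all and 8 had under 60.

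Between sham LV and sham RV, the short U2 gene was lower in the LV, and SNORD47 and SNORA69 were among the genes that were higher there. This comparison asks how the ventricles differ without volume overload. Of the 312 members, 13 (4.17%) were called, beside 3.85% of all tested genes (536 of 13910), so the share of members called lay near the background. Of the 13, 10 were higher and 3 lower in the LV, and 2 of the 10 (SNORA61 and SNORA18) had entered the set through sham LV, so that their direction was part of their selection. At an unadjusted p under 0.05 and the same fold, 59 members (18.9%) passed, beside 17.8% of all genes. Of the members, 207 lay above 0, and their median log2 difference was 0.36, beside 0.01 over all tested genes and 0.20 over the 273 other tested genes of at most 200 bases. The median stayed at 0.32 over the 202 members with more than 3 reads in both groups. By class, 6 SNORA genes were higher and 1 lower, 1 SNORD gene was higher and 1 lower, 3 U snRNA genes were higher and 1 lower, and 0 of 14 scaRNA genes and 0 of 25 others were called, with 2 and 1 passing at an unadjusted p under 0.05.

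The U2 gene of 85 bases, the member with the most reads, was lower in the LV. The gene of 85 bases (ENSRNOG00000054047, minus strand) lies on chromosome 3 at 124939267 to 124939351 as the table lists positions, inside no listed coding gene, 4041 bases from the coding gene Cds2. It held 49, 64 and 73 reads in sham LV replicates 1 to 3 and 163, 118 and 137 in sham RV, so the groups did not overlap. The level was 48.6 ± 12.4 FPKM in sham LV, against 107.5 ± 9.20 FPKM in sham RV (SD, n = 3), a log2 difference of −1.16 ± 0.23 (SE, adjusted p = 0.0344, limma). The reads summed to 186 and 418, a ratio of 0.443 with a 95% counting interval of 0.370 to 0.527. The U2 gene with the next most reads (ENSRNOG00000061400, 123 bases, chromosome 10) had a log2 difference of 0.41 ± 0.25 (SE) and was not called (adjusted p = 0.317, limma). Together, the other 5 U2 genes summed to 2.70 ± 0.839 RPM in sham LV and 2.09 ± 0.379 RPM in sham RV (SD, n = 3), with overlap. The fall thus belongs to this 1 listed gene and not to the U2 genes as a set.

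SNORD47 was the called SNORD gene with the most reads. It held 74, 90 and 64 reads in sham LV replicates 1 to 3 and 39, 47 and 43 in sham RV. Each sham LV library lay above each sham RV library, at 64.0 ± 6.30 and 36.6 ± 6.10 FPKM (SD, n = 3). The log2 difference was 0.81 ± 0.16 (SE, adjusted p = 0.0356, limma), and the ratio of the summed reads was 1.76 (95% counting interval 1.41 to 2.20). SNORD74, which lies upstream in the same cluster, was lower in the LV. It held 4, 2 and 5 reads in sham LV and 18, 10 and 13 in sham RV. Its log2 difference was −1.76 ± 0.41 (SE, adjusted p = 0.0432, limma).

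Among the SNORA genes, SNORA69 rested on the most reads. It lies on the X chromosome inside Rpl39, the gene of a ribosomal protein of the large subunit. It held 25, 54 and 34 reads in sham LV replicates 1 to 3 and 13, 10 and 15 in sham RV, without overlap. The level was 18.4 ± 6.36 FPKM in sham LV, against 6.22 ± 1.18 FPKM in sham RV (SD, n = 3), a log2 difference of 1.45 ± 0.31 (SE, adjusted p = 0.0373, limma). A pair of H/ACA genes inside Eif4a2, the gene of a translation initiation helicase, moved apart. SNORA63 (ENSRNOG00000052714) held 9, 17 and 11 reads in sham LV and 5, 6 and 3 in sham RV, a log2 difference of 1.24 ± 0.31 (SE, adjusted p = 0.0498, limma). SNORA4 (ENSRNOG00000056026) held 5, 2 and 4 reads in sham LV and 12, 10 and 11 in sham RV, a log2 difference of −1.40 ± 0.26 (SE, adjusted p = 0.0325, limma).

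The other called genes had fewer reads. A U1 gene inside Nenf (ENSRNOG00000061078) held 14, 20 and 8 reads in sham LV and 3, 4 and 8 in sham RV, so the lowest sham LV library had as many reads as the highest sham RV library. SNORA2 (ENSRNOG00000059486) held 7, 7 and 8 reads against 2, 1 and 1, and SNORA79, inside Fbxo45, held 5, 4 and 4 against 1, 1 and 0. These genes were higher in the LV, by 1.32, 1.86 and 1.69 on the log2 scale. SNORA61 (ENSRNOG00000051425) held 3, 6 and 6 reads against 1, 0 and 1, and SNORA18 (ENSRNOG00000059407), which lies 420202 bases from the nearest listed coding gene, held 7, 2 and 4 against 0, 1 and 0. With 1 to 3 reads in sham RV their ratios were 7.46 (95% counting interval 1.74 to 67.2) and 12.9 (1.94 to 550), and both genes had entered the set through sham LV. A pair of U6 genes had no read in sham RV. ENSRNOG00000060447, which lies opposite to the gene Ppp1r8, held 6, 8 and 2 reads in sham LV and was at least 5.31-fold higher there, against a floor of 3 reads over the group. ENSRNOG00000054090 held 3, 5 and 3 reads and was at least 3.65-fold higher by the same floor, with the lowest adjusted p of the members (0.00906, limma).

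The number of calls depended on single libraries, over all genes as well as over the members. Without sham LV replicate 2, or without sham RV replicate 1, 0 members were called, the number was 1 without sham LV replicate 1 or VO LV replicate 2, and it was 2 without sham RV replicate 2. Over all 13910 genes, 1 and 0 genes were called without sham LV replicate 2 and sham RV replicate 1. Without sham LV replicate 1, VO LV replicate 2 and sham RV replicate 2, 3, 5 and 4 of all genes were called. The log2 differences themselves stayed between −1.35 and −0.99 for U2 and between 0.68 and 0.92 for SNORD47 over the 12 fits. The highest number of members was 15 (4.81%), without VO RV replicate 3, when 6.27% of all genes were called. With the trend of the differences on gene length removed, 7 members were called (2.24%, beside 3.37% of all genes) and their median was 0.06, and voom on the recovered reads called 3 (0.962%, beside 4.91%). The U6 gene ENSRNOG00000054090 was called in 10 of the 12 fits that each left out 1 library, SNORA2 in 7, the U2 gene in 6 and the others in 2 to 6.

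**Figure D2:**
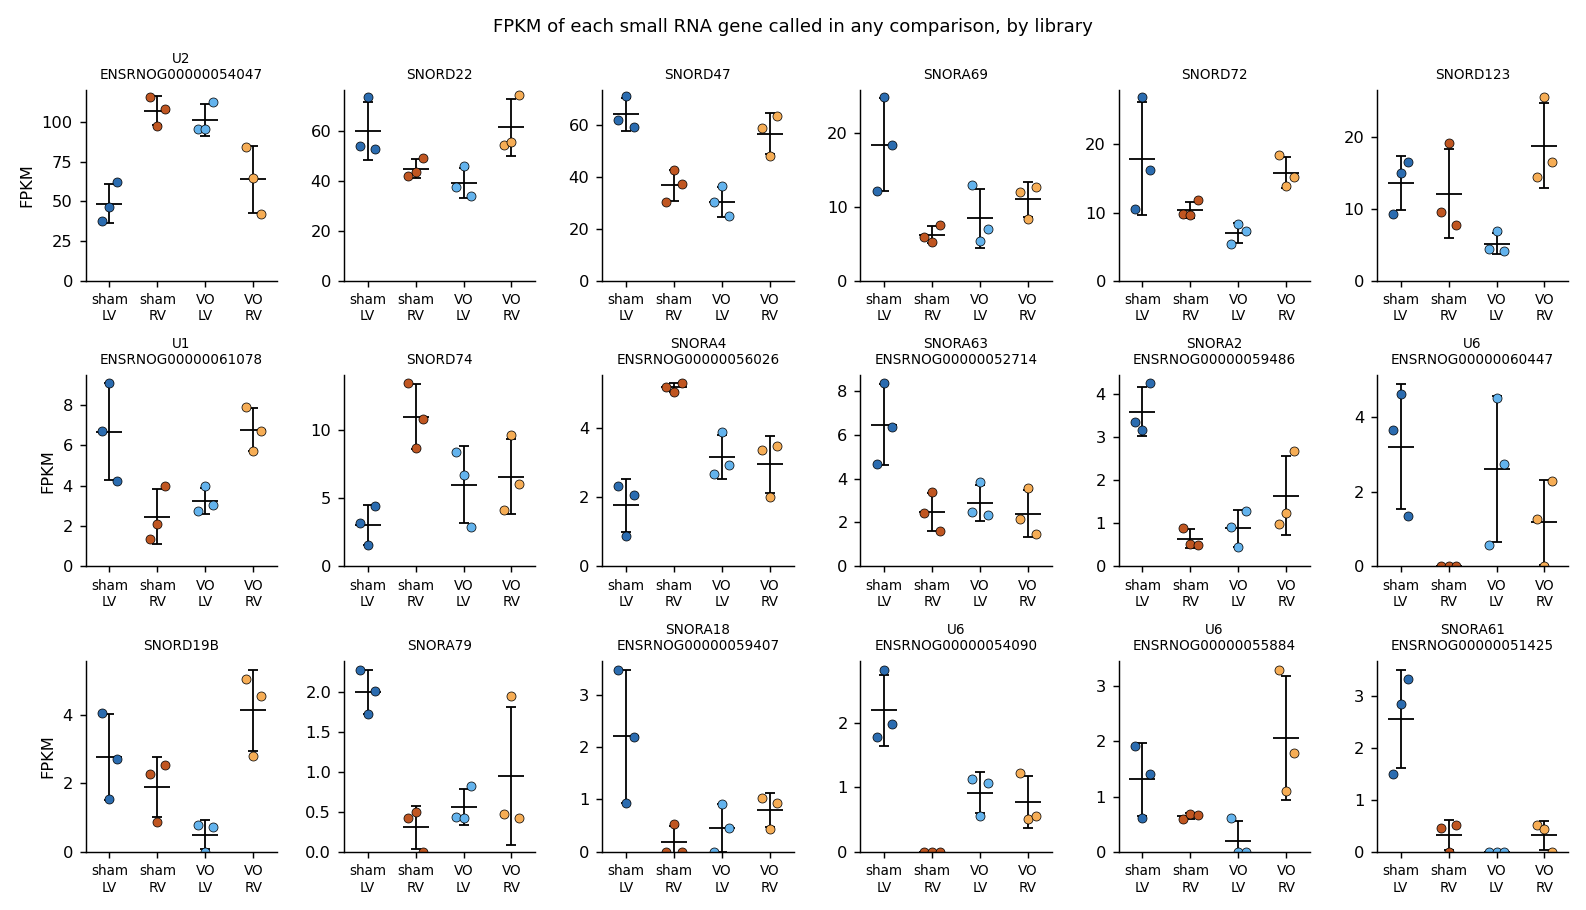
FPKM (vertical axis, linear, from 0) of the 18 small RNA genes called in any comparison, in each of the 12 libraries. Points are libraries, horizontal bars group means and vertical bars the SD (n = 3), and genes are ordered by their reads, from U2 with 1300 to SNORA61 with 19.

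After VO, SNORD47 fell in the LV. This comparison asks what volume overload changed in the LV. The 2 members called are 0.641% of the 312, beside 0.0935% of all tested genes (13 of 13910), and the other one, SNORA61, had entered the set through sham LV. At an unadjusted p under 0.05 with the same fold, 63 members (20.2%) passed, 10 higher and 53 lower in VO LV, beside 15.7% of all genes and 11.7% of the other short genes. Of the members, 221 lay below 0, and the median log2 difference was −0.39, beside −0.02 over all tested genes and −0.20 over the other short genes. VO LV held no library with Y transcripts, and with a term for these transcripts in the model 0 members and 0 of all 13910 genes were called, while 48 members passed at an unadjusted p and the median was −0.30. With the length trend removed the median was −0.08 and 0 members were called.

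SNORD47 held 74, 90 and 64 reads in the sham LV libraries and 38, 47 and 33 in VO LV replicates 1 to 3. All VO LV libraries thus lay below all sham LV libraries, and their mean was 30.4 ± 5.76 FPKM (SD, n = 3). The log2 difference was −1.07 ± 0.16 (SE, adjusted p = 0.0417, limma), and the summed reads fell to a ratio of 0.471 (95% counting interval 0.374 to 0.591). SNORA61 (ENSRNOG00000051425), a box H/ACA snoRNA opposite to the gene Ctage5, held 15 reads in sham LV and 0 in VO LV. A lower level outside sham LV was part of its selection. It was at least 5.49-fold lower in VO LV, against a floor of 3 reads over the group (adjusted p = 0.0387, limma). The 2 other SNORA61 members held 7 and 3 reads in sham LV and 5 and 0 in VO LV, and neither was called. SNORA61 was called in 5 and SNORD47 in 4 of the 12 fits that left out a library, and 0 members were called without sham LV replicate 1 or 2, sham RV replicate 1 or 3, or any single VO LV library, when at most 5 of all 13910 genes were. The log2 difference of SNORD47 stayed between −1.21 and −0.93 over these 12 fits. Without VO RV replicate 3, 10 members were called (3.21%, beside 3.98% of all genes), so that their share lay below that of all genes. The number was 6 (1.92%) without VO RV replicate 1 or sham LV replicate 3, beside 1.25% and 2.12% of all genes. With voom on the recovered reads, 3 members were called (0.962%), again below the share of all genes (2.45%).

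Several members lay near the threshold. The short U2 gene held 132, 135 and 164 reads in VO LV against 49, 64 and 73 in sham LV, a log2 difference of 1.08 ± 0.23 (SE, adjusted p = 0.0540, limma). SNORA2 (ENSRNOG00000059486) held 2, 1 and 3 reads in VO LV against 7, 7 and 8, a log2 difference of −1.60 (adjusted p = 0.0519, limma). SNORD72 held 7, 11 and 10 reads against 13, 35 and 18 (adjusted p = 0.0582, limma). None of these 3 was called.

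In the RV after VO, 0 members and 0% of all tested genes were called by limma. At an unadjusted p under 0.05 with the same fold, 31 members (9.94%) passed, 25 higher and 6 lower in VO RV, beside 4.91% of all genes (683 of 13910). Of the 273 other tested genes of at most 200 bases, 10.3% passed, so the share of members lay near that of other short genes. The median log2 difference of the members was 0.14, beside 0.00 over all tested genes and 0.02 over the other short genes, and 184 members lay above 0. The U2 gene stood at 84.5, 64.9 and 42.2 FPKM in VO RV replicates 1 to 3 and at 116, 97.8 and 108 FPKM in sham RV, a log2 difference of −0.80 ± 0.23 (SE, adjusted p = 0.541, limma). SNORD47 held 68, 67 and 81 reads against 39, 47 and 43, a log2 difference of 0.63 ± 0.16 (SE, adjusted p = 0.535, limma). The groups did not overlap for either gene, and neither passed the test.

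Between VO LV and VO RV, 0 members were called by limma, beside 0.00719% of all tested genes (1 of 13910). At an unadjusted p under 0.05 with the same fold, 27 members (8.65%) passed, 4 higher and 23 lower in VO LV, beside 7.4% of all genes and 9.52% of the other short genes. The median log2 difference was −0.20, beside 0.01 over all tested genes. SNORD47 stood at 30.4 ± 5.76 FPKM in VO LV, against 56.5 ± 7.84 FPKM in VO RV (SD, n = 3), and SNORD22 at 39.1 ± 6.17 and 61.3 ± 11.3 FPKM. The short U2 gene lay the other way, with 431 reads in VO LV and 265 in VO RV, a ratio of 1.56 (95% counting interval 1.34 to 1.83), and it was not called (adjusted p = 0.312, limma).

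Members were called for a difference in the response to VO between the ventricles about as often as all genes. The difference of the responses was tested as an interaction, the LV change minus the RV change. The 13 members are 4.17% of the 312, beside 4.19% of all tested genes (583 of 13910), and so lay at the background. At an unadjusted p under 0.05 with the same fold, 60 members (19.2%) passed, beside 23.1% of all genes. Of the 13 called members, 2 had a higher and 11 a lower value, while 481 of the 583 genes called over all tested genes had a higher value. Among the other tested genes of at most 200 bases, 1 was called with a higher and 3 with a lower value. The median of the members was −0.60, beside −0.04 over all tested genes and −0.35 over the other short genes. This comparison uses all 12 libraries, and its calls are not independent of those between the sham groups or in the LV.

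SNORD22, which belongs to the cluster beside Slc3a2, held 104, 150 and 92 reads in sham LV and 76, 96 and 73 in VO LV. In the RV it stood at 44.9 ± 3.82 FPKM after the sham operation and 61.3 ± 11.3 FPKM after VO (SD, n = 3). Scaled to FPKM, VO LV (37.3, 45.9 and 33.9) lay below sham LV (53.7, 73.4 and 52.7) in all libraries, and the difference of responses was −1.04 ± 0.23 on the log2 scale (SE, adjusted p = 0.0370, limma). SNORD47 had a difference of −1.70 ± 0.23 (SE, adjusted p = 0.0246, limma), the lowest adjusted p of the members. SNORD72, which lies between Card6 and Prkaa1 where RefSeq lists the ribosomal protein gene Rpl37, held 13, 11 and 14 reads in sham RV and 22, 20 and 20 in VO RV. With 17.9 ± 8.34 FPKM in sham LV and 7.01 ± 1.46 FPKM in VO LV (SD, n = 3), this gave a difference of −1.79 ± 0.38 (SE, adjusted p = 0.0342, limma).

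SNORD123 held 10, 17 and 16 reads in sham LV and 5, 8 and 5 in VO LV, and in the RV 11, 19 and 8 after the sham operation and 15, 32 and 19 after VO. Its difference of responses was −1.98 (adjusted p = 0.0449, limma). SNORA69 (−1.88), the U1 gene in Nenf (−2.28) and SNORA2 (−2.45) were also called, as were SNORA61 (−2.54), the U6 gene ENSRNOG00000054090 (−2.23), a U6 gene inside LOC100911597 (ENSRNOG00000055884, −2.47) and SNORD19B (−2.75). The last 2 held 20 and 35 reads in all, and SNORA61 had entered the set through sham LV, which is part of this difference. SNORD19B, in the gene of the nucleolar protein Gnl3, held 5, 2 and 3 reads in sham LV and 1, 0 and 1 in VO LV, and in the RV 3, 1 and 3 after the sham operation and 6, 4 and 6 after VO. The 2 members with a higher value were the short U2 gene (1.88 ± 0.32, SE, adjusted p = 0.0249, limma) and SNORA4 (1.498 ± 0.37, SE, adjusted p = 0.0491, limma). With a term for Y transcripts 5 members were called (1.60%, beside 0.992% of all genes). When sham LV replicate 1 or 2, sham RV replicate 1, or VO LV replicate 2 or 3 was left out, 0 members and 0 of all genes were called. Leaving out another library gave 2 to 18 members (0.641% to 5.77%, beside 0.0288% to 7.22% of all genes). With the length trend removed, 6 members were called (1.92%, beside 2.83% of all genes) and the median was −0.11, and voom called 4 (1.28%, beside 5.77%).

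**Figure D3:**
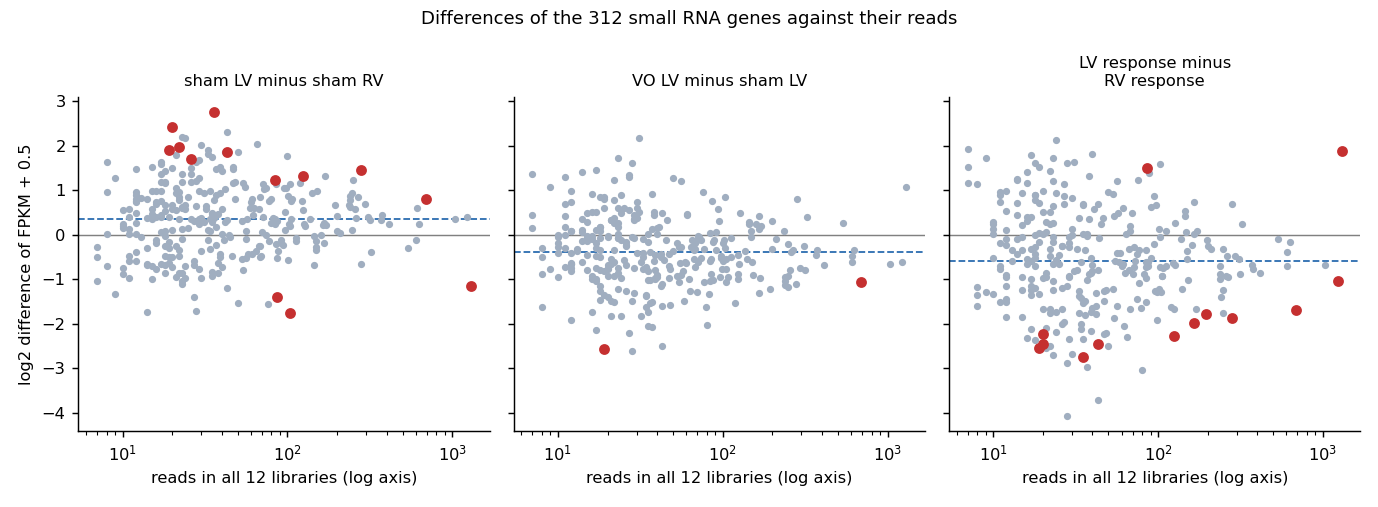
Log2 difference of FPKM + 0.5 (vertical axis) against the reads of each of the 312 members in all 12 libraries (horizontal log axis), for 3 comparisons. Red points were called, the dashed line is the median of the members (0.36, −0.39 and −0.60), and the spread is widest among genes with few reads.

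The protein-coding host genes had medians nearer to 0 than the small RNAs inside them, with more of them called in the 2 comparisons that called any. Of the 312 members, 163 lay inside a listed gene of the same strand, in 119 host genes, all coding for proteins, and 118 of these hosts were tested. The table gives no exons, so whether a member is intronic was not read. A further 51 members lay only inside a gene of the opposite strand and 98 in neither. Ribosomal protein and translation factor genes hosted 49 members, with 4035 reads. Between sham LV and sham RV the hosts had a median log2 difference of 0.06, beside 0.40 for the members in them. In the LV after VO the medians were −0.10 for hosts and −0.44 for members, and for the difference of responses −0.11 and −0.68. The median SE was 0.12 for hosts and 0.58 for the members between the sham groups. There, 7 of 118 hosts (5.93%) were called, beside 6 of 163 members (3.68%) and 3.85% of all tested genes, and for the difference of responses 10 hosts (8.47%) and 6 members, beside 4.19%. In neither comparison did any of the 6 called members with a host have a called host.

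None of the listed hosts of called members was called, while other called members, among them SNORD47, SNORD74, SNORD22 and SNORD72, had no listed host to test. Rpl39, the host of SNORA69, had a log2 difference between sham LV and sham RV of −0.02 ± 0.30 (SE, adjusted p = 0.979, limma). Its FPKM were 668 ± 313 and 615 ± 18.7 (SD, n = 3), and the difference of means of log values was below 0 although the mean FPKM was higher in sham LV. Eif4a2, the host of SNORA63 and SNORA4, had −0.01 ± 0.07 (SE, adjusted p = 0.962, limma), at 125 and 126 FPKM, and rested on 53617 reads. Nenf had 0.19 and Fbxo45 −0.24. The widest were LOC100360635, the host of SNORA2, with 0.51 ± 0.19 (SE, adjusted p = 0.128, limma) and LOC100911597, the host of the U6 gene ENSRNOG00000055884, with 0.68 ± 0.17 (SE, adjusted p = 0.0508, limma). That U6 gene itself was called only for the difference of responses, so its host value here is from another comparison. Gnl3, the host of SNORD19B, had a difference of responses of −0.38 ± 0.15 (SE, adjusted p = 0.157, limma).

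**Figure D4:**
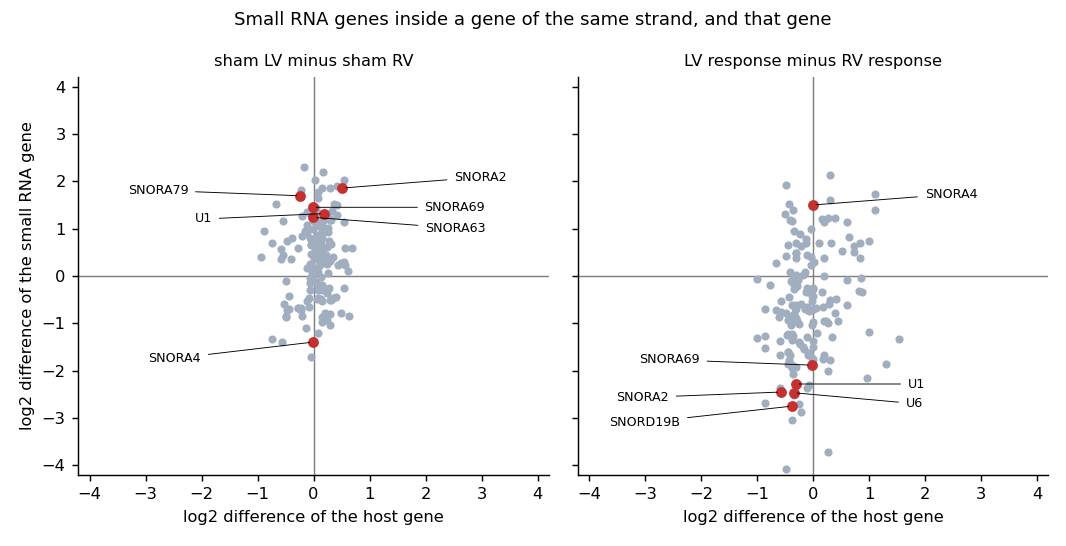
Log2 difference of each small RNA gene (vertical axis) against that of the gene of the same strand that encloses it (horizontal axis, same range), for 2 comparisons. Red points are called members with their names, and the points spread along the vertical axis more than along the horizontal axis.

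Some members lay close together in the genome, and neighbours did not all lie on the same side of 0. With gaps of at most 3000 bases on a strand, 60 members fell into 14 clusters of at least 3. The cluster with 2885 reads lies on chromosome 13 at 78852741 to 78855688 (plus strand), beside Zbtb37, where RefSeq lists Gas5, a non-coding host gene with many box C/D snoRNAs. In order of transcription it holds SNORD74, SNORD75, SNORD24, SNORD44, SNORD78, SNORD79, SNORD47 and SNORD81. Of these 8, 6 lay above 0 between sham LV and sham RV, with a median log2 difference of 0.56, and 1 lay above 0 in the LV after VO, with a median of −0.58. SNORD74 and SNORD78 lay below 0 in the former, at −1.76 and −0.11, and SNORD74 above 0 in the latter, at 0.85. The cluster with the most reads (3145) lies on chromosome 1 at 224921637 to 224923957 (plus strand), between Slc3a2 and Wdr74, and holds SNORD25, SNORD26, SNORD27, SNORD28, SNORD29, SNORD30, SNORD31 and SNORD22. Its median differences were 0.08 and −0.12, and 4 of 8 members lay above 0 between the sham groups. The level of Gas5 itself was not analysed here.

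The cluster in Eif4a2 (chromosome 11, 81375246 to 81378464, minus strand) holds SNORD2, SNORA63, SNORA81, another SNORA63 and SNORA4. Their log2 differences between sham LV and sham RV ran from −1.40 (SNORA4) to 1.24 (SNORA63), with a median of −0.08. The 3 members in Gnl3 (chromosome 16, 7099100 to 7101092, minus strand) all lay below 0 in the LV after VO, at −1.07 for SNORD19, −1.75 for SNORD19B and −2.03 for SNORD69, and above 0 in the RV, with medians of −1.75 and 1.00. None of the 3 was called in either. SNORD69 held 19 of its 80 reads in VO RV replicate 3, which also had a high sum over all members.

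**Figure D5:**
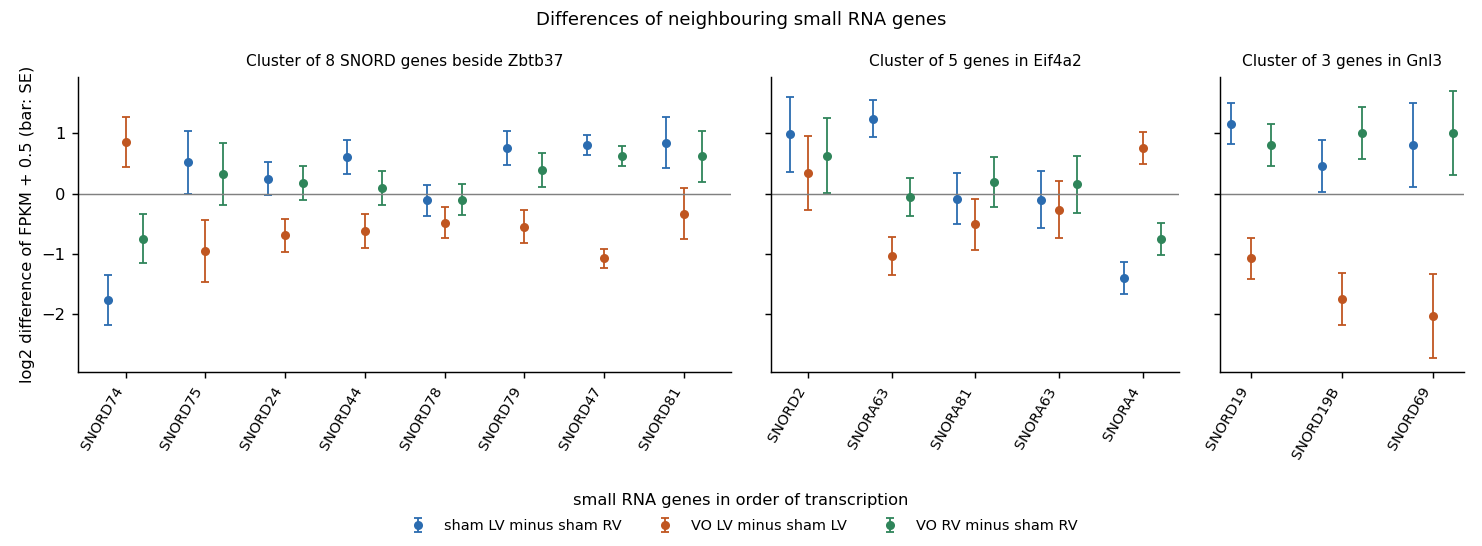
Log2 difference of FPKM + 0.5 (vertical axis) with its SE (bars) for neighbouring small RNA genes of 3 clusters, in order of transcription along the horizontal axis, in 3 comparisons that share sham groups. SNORD74 lies opposite to most of its neighbours, SNORA4 and a SNORA63 gene lie on opposite sides of 0 between the sham groups, and the 3 genes of Gnl3 lie on the same side.

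The promoters of 3 of these host genes are shown because each host holds several members, which were called in opposite directions (Gas5 and Eif4a2) or lay on the same side of 0 (Gnl3). The sequences are the 250 bases before the start in the RefSeq promoter table (build GRCr8), read 5′ to 3′ on the strand of the gene, at chr13:75836713-75836962 (plus strand) for Gas5, chr11:91275324-91275573 (minus strand) for Eif4a2 and chr16:6219783-6220032 (minus strand) for Gnl3. The build of the deposited table is not stated in the sources used here, and these positions cannot be set against those above. The RefSeq gene start lay just after these 250 bases for 9696 of 16845 plus strand genes and 9643 of 16624 minus strand genes. Whether it did for these 3 genes was not read, so distances are given to the end of the printed window. Capitals mark a match to TATAAA, TGACGTCA (the full cyclic AMP response element) or CACGTG (an E-box), searched on both strands.
Gas5: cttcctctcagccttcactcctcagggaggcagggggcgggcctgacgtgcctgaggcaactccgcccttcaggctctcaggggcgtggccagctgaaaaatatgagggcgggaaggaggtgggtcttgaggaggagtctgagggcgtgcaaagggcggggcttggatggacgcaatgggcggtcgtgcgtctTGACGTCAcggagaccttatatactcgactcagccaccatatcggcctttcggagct
Eif4a2: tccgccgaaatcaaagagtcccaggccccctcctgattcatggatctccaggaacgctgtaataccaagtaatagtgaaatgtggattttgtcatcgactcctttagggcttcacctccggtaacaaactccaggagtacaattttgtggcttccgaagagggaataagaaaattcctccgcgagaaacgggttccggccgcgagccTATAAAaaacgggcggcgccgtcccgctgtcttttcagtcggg
Gnl3: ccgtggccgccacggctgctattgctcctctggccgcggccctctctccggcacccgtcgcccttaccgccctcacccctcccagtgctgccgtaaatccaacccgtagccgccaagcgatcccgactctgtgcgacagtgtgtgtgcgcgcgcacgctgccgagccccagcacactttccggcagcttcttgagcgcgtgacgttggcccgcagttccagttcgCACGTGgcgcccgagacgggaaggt
Gas5 held TGACGTCA 57 bases before the end of its window, a sequence found in 1.59% of 33469 promoters of this length. Eif4a2 held TATAAA 43 bases before the end of its window, found in 12.9% of promoters and in 11 of the 88 hosts that matched the table (12.5%). Gnl3 held CACGTG 25 bases before the end of its window, found in 5.59% of promoters and in 9 of the 88 hosts (10.2%). The matches are descriptions of these windows.

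Of the mRNAs of 80 tested proteins that bind and build these RNAs, 1 was called in any comparison, beside 5.9% of all tested genes. Of 82 listed partner genes, 80 were tested. They comprise the core proteins of box C/D and H/ACA particles, assembly factors, Cajal body and snRNP biogenesis factors, spliceosomal snRNP proteins, factors of snRNA transcription and 3′ processing, and trimming enzymes. Gemin5, the subunit of the SMN complex that recognises snRNAs, was lower in the LV of the sham groups, at 3.12 ± 0.198 in the LV and 4.49 ± 0.242 FPKM in the RV (SD, n = 3), a log2 difference of −0.46 ± 0.10 (SE, adjusted p = 0.0361, limma). Its difference of responses was 0.77 ± 0.14 (SE, adjusted p = 0.0249, limma), with 4.46 ± 0.170 FPKM in VO LV, against 3.51 ± 0.0955 FPKM in VO RV. It was the only partner called in any of the 5 comparisons. The median log2 difference of the 80 genes was 0.06 between the sham groups, −0.06 in the LV after VO, 0.05 in the RV, −0.03 between the VO groups and −0.10 for the difference of responses. The 24 genes of spliceosomal snRNP proteins had medians of 0.21 between the sham groups (18 higher), −0.16 in the LV after VO (7 higher) and −0.28 for the difference of responses, where 7 passed at an unadjusted p, beside 23.1% of all genes. None of these was called. In the comparisons without a call, the smallest p values were those of Gemin5, Gemin2 and Rpap3 in the LV after VO (adjusted p from 0.0534, limma), of Gemin5, Snrpa and Snrpd1 in the RV (adjusted p from 0.542, limma) and of Gemin5, Lsm2 and Lsm3 between the VO groups (adjusted p from 0.304, limma).

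Some members had a large share of their reads in a single library. SNORA40 in Rps16 (ENSRNOG00000055387) held 20 of its 62 reads (32.3%) in VO RV replicate 1, and 1 and 11 in replicates 2 and 3. SNORD86 in Nop56, the gene of a box C/D core protein, held 41 of its 152 reads (27.0%) in sham LV replicate 2. SNORA3 in Rpl27a (ENSRNOG00000053089) held 17 of its 71 reads (23.9%) in VO LV replicate 1. None of these genes was called in any comparison. The levels were 5.47 ± 5.11 FPKM for SNORA40 in VO RV, 16.04 ± 12.3 FPKM for SNORD86 in sham LV and 3.74 ± 3.78 FPKM for SNORA3 in VO LV (SD, n = 3).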

How the data were processed

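RNA was measured in 12 libraries of neonatal rat myocardium, 3 in each of 4 groups. The deposited table holds FPKM, which the authors made with HISAT2 2.0.5 and featureCounts 1.5.0-p3 per the labels, whose processing notes also name StringTie 1.3.3b, DESeq2 1.20.0 and GATK 3.7. The genome build, annotation release and strand setting are not given in the sources used here, so antisense and overlapping genes may share reads. All value columns matched a sample by name (0 without one). Low values were whole multiples of the worth of 1 read. Within 0.02 of a read, 100% of values under 200 reads came out whole in each library, and reads were recovered from these steps. The values divide by a total up to 1.12 times the reads on genes, for which no description was found.

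FPKM were divided by median-ratio size factors and tested as log2(FPKM + 0.5) with limma 3.58.1 in R 4.3.3, with the trend option, over the 13910 genes with a mean of at least 0.5, in 1 model of 4 groups with 5 contrasts and Benjamini-Hochberg adjustment. The script was tested on simulated data. A fold change on this scale understates that of low genes. limma-voom on the recovered reads called 3, 3, 0, 0 and 4 members and 683, 341, 0, 1 and 802 of all genes in the comparisons sham LV with sham RV, VO in the LV, VO in the RV, VO LV with VO RV, and the difference of responses. Hosts are listed genes of the same strand that enclose a member. Intervals of read ratios are exact at 95%, and floors are 3 reads over a group. Named members were all those called where at most 8 were, otherwise the 4 largest rises and 4 largest falls, the 10 with the most reads, the 2 on each side of the FPKM minimum, the 2 of each class with the most reads, the 5 with over 60 reads most concentrated in 1 library, and SNORA61, SNORD47, SNORA2, SNORD19B and a pair of U6 genes known from earlier results, with their hosts, and partners called or with the 3 smallest p. The other called members, those near the threshold and the cluster members were named after their values were seen. The members and all gene lists were chosen with earlier results of these data known. Alternatives changed the filter, pseudocount, scaling, length trend, model and libraries used.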

Additional observations from a re-analysis of the deposited data

Results flagged for a closer look

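The interaction in limma called 13 members for a different response to VO in the ventricles, about the share over all genes, and each value here is the LV change minus the RV change on the log2 scale. It was −2.75 for SNORD19B, −2.54 for SNORA61 (ENSRNOG00000051425), −2.47 for the U6 gene ENSRNOG00000055884, −2.45 for SNORA2 (ENSRNOG00000059486), −2.28 for the U1 gene in Nenf and −2.23 for the U6 gene ENSRNOG00000054090. It was −1.98 for SNORD123, −1.88 for SNORA69, −1.79 for SNORD72, −1.70 for SNORD47 and −1.04 for SNORD22. Only SNORA4 (ENSRNOG00000056026) and the U2 gene of 85 bases lay above 0 among the 13, at 1.498 and 1.88. SNORA61 had entered the set through sham LV, a group that this comparison uses. The same comparison called 4.19% of all tested genes and 4.17% of the members. limma-voom on the recovered reads kept U2 (adjusted p = 0.0149), SNORD47 (adjusted p = 0.0163), the U1 gene (adjusted p = 0.0445) and SNORD22 (adjusted p = 0.0469).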

How the results depend on the processing

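The number of members called of 312 between sham LV and sham RV (13) was 1 with all genes above 0, 7 with the length trend removed, 5 of the 50 members with a mean of at least 10 reads (10%, beside 5.27% of all genes), 3 with voom (0.962%, beside 4.91%) and 59 with unadjusted p. In the LV after VO (2) it was 0 with the Y term, 0 with all genes above 0 and 0 with the length trend removed. It was 6 in a separate fit (1.92%, beside 0.856%) and 63 with unadjusted p. Among the 50 members with a mean of at least 10 reads, 3 were called (6%, beside 1.81% of all genes). The excess over all genes was absent with voom (0.962%, beside 2.45%) and with a mean FPKM of at least 1 (1.37%, beside 1.44%). In the RV (0) and between the VO groups (0) the number called was 31 and 27 with unadjusted p. For the difference of responses (13) it was 5 with the Y term, 1 with all genes above 0, 6 with the length trend removed, 8 of the 50 with a mean of at least 10 reads (16%, beside 5.44% of all genes), 4 with voom (1.28%, beside 5.77%) and 60 with unadjusted p. Leaving out 1 library gave 0 to 15, 0 to 10, 0 to 1, 0 to 1 and 0 to 18 in these 5 comparisons. In the fits with the most, 4.81%, 3.21%, 0.321%, 0.321% and 5.77% of the members were called. The shares of all genes there were 6.27%, 3.98%, 0.00719%, 0.345% and 7.22%. With the length trend removed, the members' medians were 0.06 between the sham groups and −0.11 for the difference of responses. Correlations of the same replicate number in LV and RV were 0.0377 to 0.123 in the sham groups and −0.218 to 0.0535 after VO. Those of unlike numbers reached 0.118 and 0.179. Y transcripts also went together by number in the sham groups, so a pairing there was not settled. VO LV replicate 3 (0 FPKM of Y chromosome genes) and VO RV replicate 3 (57.1 FPKM) were not from 1 rat. With the replicate block 1, 1, 0, 1 and 1 members were called, of 3, 3, 0, 2 and 1 genes in all. Those in the LV after VO and between the VO groups were not called without it. Scaled to reads on protein-coding genes outside the mitochondrial genome in place of all reads on genes, the RPM of the members were 209 and 148 in sham LV and VO LV, and 162 and 183 in the RV after the sham operation and VO. On that scale VO RV replicate 2 (167.7) lay below sham RV replicate 3 (168.6). On all reads on genes sham RV stood at 129, or 119 without the U2 gene. Without single libraries these sums on all reads ranged from 142 to 178 in sham LV, 113 to 128 in VO LV, 126 to 131 in sham RV and 137 to 149 in VO RV. The cause of these changes was not tested. The median of 3 reads per member and library limits most single genes.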
